A study of Mus musculus with 56 samples.

Results

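Monocytes and macrophages of full-thickness skin punch wounds, taken 4 days after wounding, were compared between mice that had lost their regulatory T cells (Tregs) and mice that kept them. The 8 libraries were taken by their sample labels from 56 libraries of a study that also covered later skin wounds and injured muscle, bone and heart. The depleted group, with 4 libraries, came from Foxp3(DTR/GFP) (FDG) mice, in which the Foxp3 locus drives the diphtheria toxin receptor together with green fluorescent protein, so that toxin kills Tregs. The control group, also with 4 libraries, came from wild-type C57BL/6J mice. All mice, the controls included, were 10 weeks old, carried 1 injury and received 20 ng/g diphtheria toxin from 2 days before wounding, daily up to the injury and every 2 days after it. Genotype and depletion therefore cannot be told apart. Which surface markers the sort used is not given in the sources used here. Set beside them were FDG and wild-type mice with the same toxin schedule: skin wounds at day 7 (4 depleted and 4 control libraries) and volumetric muscle loss at day 4 (3 depleted and 3 control libraries). The labels do not say whether each library is another animal, so that p-values cover only how these libraries varied, which can be technical.

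Tregs restrain other immune cells through cytokines, through surface receptors and by taking up growth factors of lymphocytes. In a healing skin wound, monocytes enter from blood, clear debris and dying cells, and turn into macrophages that support new vessels and matrix, beside macrophages that lived in the skin before the injury. Interferon-gamma made by T and NK cells drives macrophages towards antigen presentation and killing of microbes, whereas interleukin 4 and interleukin 13, made by T helper 2 cells, innate lymphoid cells, basophils and other granulocytes, drive a programme called alternative activation.

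The libraries held 3013776 to 5097753 counts each, read from the 3′ ends of transcripts. Levels are given in CPM, counts scaled to the normalized library size, in the order of replicates 1 to 4 of each group. Each log2 change is depleted minus control, with its standard error after the ± sign. Adjusted p-values come from the quasi-likelihood test of edgeR, adjusted by Benjamini-Hochberg over all 12616 genes tested. A gene is said to have risen or fallen where this value was under 0.05. Macrophage identity genes were high throughout: the lysosomal glycoprotein gene Cd68 stood at 619, 612, 807 and 593 CPM in depleted and 775, 897, 895 and 959.8 CPM in control libraries. The colony-stimulating factor 1 receptor gene Csf1r had 513, 562, 509 and 506 CPM in depleted and 538, 581, 603 and 644 CPM in control libraries. The summed level of the 13 identity genes was 18969.6 to 25886 CPM in depleted and 20801 to 27286 CPM in control libraries. Adgre1, which encodes F4/80 and is 1 of them, fell (log2 change -0.60 ± 0.14, adjusted p = 0.0171), a call lost without any of depleted 4 and control 4 (adjusted p up to 0.0897). Foxp3 had 1 count in depleted and 6 in control libraries, all 6 in replicate 1, and was too low to test. It does not check the labels in cells that are not T cells. Of 3 regulatory T cell markers tested 1 rose, Tnfrsf18, the gene of GITR (log2 change 2.03, adjusted p = 0.0279), a call lost without any of depleted 2 and 3 and control 2, 3 and 4 (adjusted p up to 0.0928), and the list summed to 18.2 to 51.2 CPM in depleted and 37.4 to 69.97 CPM in control libraries. The summed levels of mitochondrial transcripts (exact permutation p = 0.886, two-sided, n = 4 each), ribosomal protein genes (exact permutation p = 0.571) and Rn18s-rs5, a ribosomal RNA gene (exact permutation p = 0.8286), did not separate the groups, where 4 against 4 libraries can reach 0.0286. Within the depleted group, replicates 3 and 4 were the highest in all 3 sums. Depleted replicates 1 to 4 had 16456, 21534, 31224 and 26779 CPM of mitochondrial transcripts. In the same order they had 99681, 87533, 136174 and 116800 CPM of ribosomal protein genes and 12154, 21560, 66245 and 32114 CPM of Rn18s-rs5.

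In depleted wounds at day 4, genes of basophils and type 2 cytokines, genes that interferon-gamma induces, and genes of blood monocytes were higher, while genes of resident macrophages and of dividing cells were lower. Of 12616 genes tested, 450 passed (3.57%), 267 higher (2.12%) and 183 lower (1.45%). An unadjusted p under 0.05 was found for 2065. Of the genes that passed, 163 were at least 2-fold higher and 109 at least 2-fold lower, and for 396 the 4 depleted and 4 control libraries did not overlap. Groups that did not overlap were found for 10.5% of all genes tested, with the depleted group higher for 5.4% and lower for 5.1%. The median log2 change of all genes was -0.0063. A dagger (†), not repeated at each mention, marks a gene that shares at least 5% of its 31-base words with another annotated gene. The counts of such a gene are uncertain where reads fit several genes. The same holds, without a dagger, for Foxp3, Ifng, Isg15, Mgl2, Hspa1b, Csf2rb, Ifit1, Ifit3, Mx1, Oas1a, Igtp and Irgm2.

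**Figure D1:**
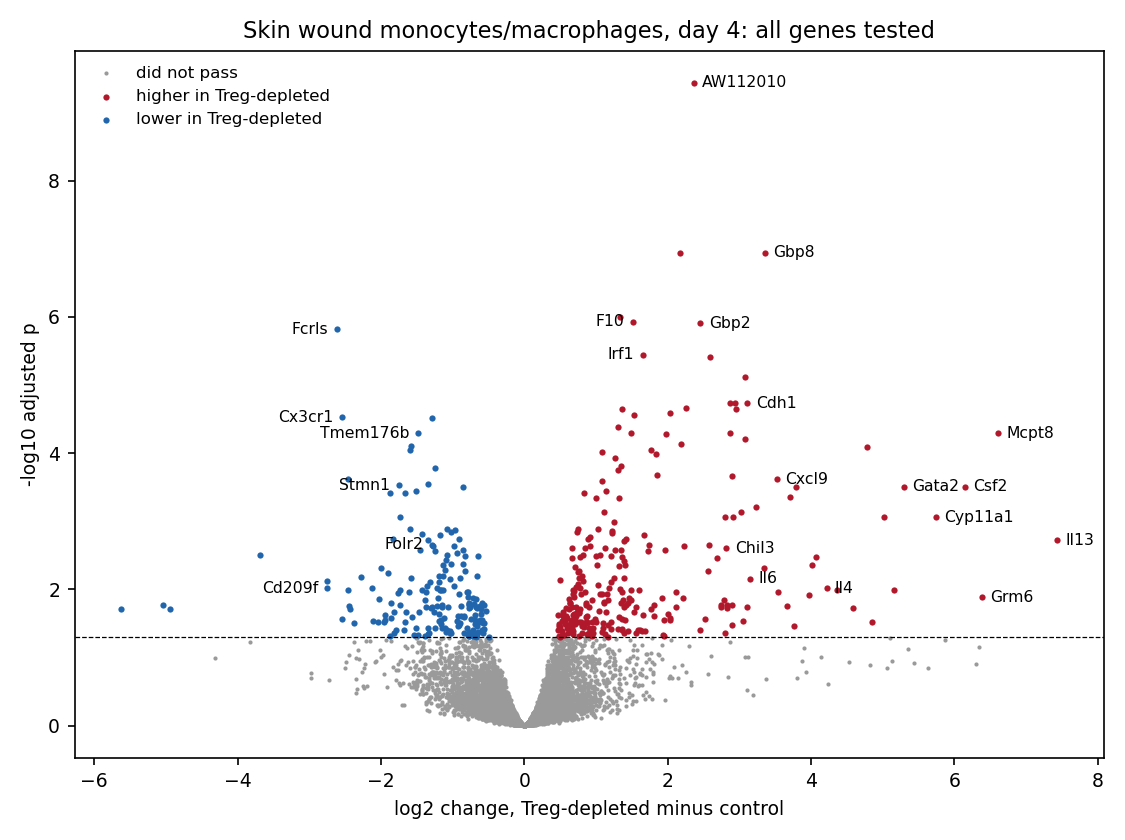
Log2 change (depleted minus control, n = 4 each) on the horizontal axis and adjusted p-value on a −log10 vertical axis for all 12616 genes tested in skin at day 4, 1 point a gene, with the genes that passed coloured by direction. A reader should see 267 coloured points on the right, with Il13, Mcpt8, Grm6 and Csf2 the furthest out, and 183 on the left, among them Cx3cr1, Fcrls and Cd209f.

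Among the highest rises were basophil genes and cytokine genes that basophils and activated lymphoid cells express. Mcpt8, which encodes mast cell protease 8, a basophil protease in mice, stood at 124, 204, 531 and 456 CPM in depleted and 4.56, 2.93, 4.19 and 1.03 CPM in control libraries. The lowest depleted library was thus far above the highest control library, and depleted replicates 3 and 4 were the highest (log2 change 6.61 ± 0.63, adjusted p = 5.1e-05). Il4, the gene of interleukin 4, had 33.3, 53.8, 117 and 133 CPM in depleted and 6.34, 8.21, 2.99 and 0.343 CPM in control libraries (log2 change 4.22 ± 0.77, adjusted p = 0.00953). All 4 depleted libraries were above all controls, and control replicate 4 had next to none. Il13, the gene of interleukin 13, had 10.2, 14.6, 59.4 and 72.6 CPM in depleted and 0.253, 0.586, 0 and 0 CPM in control libraries. It held 650 counts over the depleted and 3 over the control libraries, a pooled ratio of 213 (95% counting interval 72.6 to 1037), which covers counting error only. Csf2, which encodes the growth factor GM-CSF, stood at 10.7, 14.3, 21.3 and 18.1 CPM in depleted and 0.76, 0, 0 and 0 CPM in control libraries, with 251 against 3 counts and a pooled ratio of 82.3 (95% counting interval 27.9 to 402). All depleted libraries were above all controls for both cytokine genes (Il13 adjusted p = 0.00189, Csf2 adjusted p = 0.000314).

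Other genes rose about as far from control levels near 0. Grm6, a metabotropic glutamate receptor gene, had 1.24, 2.27, 13.8 and 35.2 CPM in depleted and 0.253, 0, 0.199 and 0 CPM in control libraries. Its 231 counts in depleted and 2 in control libraries gave a pooled ratio of 114 (95% counting interval 31.1 to 944) (adjusted p = 0.013), a call lost without control 3 (adjusted p up to 0.0543). Hs3st1, the gene of an enzyme that sulfates heparan sulfate chains, had 2.24, 8.75, 9.66 and 8.94 CPM in depleted and 0.507, 0, 0 and 0.343 CPM in control libraries, with 114 against 3 counts and a pooled ratio of 37.4 (95% counting interval 12.5 to 184) (adjusted p = 0.000868). Depleted replicates 3 and 4 were the highest for both genes. Msx3, a homeobox gene, had 2.74, 5.51, 13.3 and 9.98 CPM in depleted and 0.253, 0, 0.598 and 0 CPM in control libraries (log2 change 4.79 ± 0.65, adjusted p = 8.01e-05). Skap1, an adaptor gene of T cells, held 85 against 3 counts, a pooled ratio of 27.9 (95% counting interval 9.22 to 138) (adjusted p = 0.0185), and its call was lost without any of depleted 3 and 4 and control 1, 2, 3 and 4 (adjusted p up to 0.069). Lama5, a laminin chain gene, held 97 against 2 counts, a pooled ratio of 47.7 (95% counting interval 12.9 to 399.7) (adjusted p = 0.0102), with overlapping groups and a call lost without depleted 4 (adjusted p up to 0.0505).

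Gata2, which encodes a transcription factor of basophils and mast cells, had 3.73, 5.83, 20.7 and 26.0 CPM in depleted and 0.76, 0, 0 and 0.686 CPM in control libraries (log2 change 5.30 ± 0.77, adjusted p = 0.000314). Hdc, which encodes the enzyme that makes histamine, had 41.3, 50.5, 103 and 127 CPM in depleted and 6.08, 16.1, 11.2 and 9.60 CPM in control libraries (log2 change 2.91 ± 0.42, adjusted p = 0.000874). Cyp11a1, which encodes the enzyme that begins steroid hormone synthesis from cholesterol, had 6.22, 13.3, 43.1 and 42.2 CPM in depleted and 1.01, 0, 0.199 and 0.686 CPM in control libraries (log2 change 5.75 ± 0.84, adjusted p = 0.000874). In all 3 genes the groups did not overlap and depleted replicates 3 and 4 were the highest. The receptor genes Ms4a2 (log2 change 4.01, adjusted p = 0.00436) and Fcer1a (log2 change 2.81, adjusted p = 0.043), which encode chains of the high-affinity IgE receptor, and Cd200r3 (log2 change 3.53, adjusted p = 0.0108) rose as well, the last a surface receptor gene of basophils and mast cells. The Fcer1a call was lost without any of depleted 3 and 4 and control 1, 3 and 4 (adjusted p up to 0.169) and the Cd200r3 call without control 3 (adjusted p up to 0.0505). Of 15 mast cell, basophil and eosinophil markers tested, 5 rose (Mcpt8, Il4, Il13, Ms4a2 and Fcer1a), 0 fell and 10 did not pass, with a median log2 change of 1.07. The mast cell protease gene Cpa3 had 0.497, 2.27, 8.56 and 12.5 CPM in depleted and 1.52, 12.01, 1.79 and 3.43 CPM in control libraries (log2 change 0.41 ± 0.75, adjusted p = 0.856). The eosinophil receptor gene Siglecf had 9.70, 20.7, 1.93 and 0.416 CPM in depleted and 7.35, 5.57, 4.59 and 1.37 CPM in control libraries (log2 change 0.70 ± 0.75, adjusted p = 0.723). Neither passed. Prss34, the gene of another basophil protease, did not pass either (log2 change 1.54, adjusted p = 0.237). Without depleted replicate 1 Prss34 did pass (adjusted p = 0.0227). The summed level of the list was 213 to 775 CPM in depleted and 33.9 to 119 CPM in control libraries. Whether these transcripts came from basophils in the sorted samples or from the macrophages was not tested. In bulk samples fewer cells of a type and less RNA per cell cannot be told apart. Without depleted replicates 3 and 4, 2 markers of the list rose and 240 genes of all passed, 168 higher and 72 lower. A covariate was built from 8 basophil genes: Mcpt8, Ms4a2, Fcer1a, Il4, Il13, Hdc, Cd200r3 and Gata2. It was the log2 of their summed CPM plus 1, on library totals without normalization. Each of these genes was thus adjusted for a sum that holds its own counts. With this covariate, 0 genes passed in edgeR's test and 940 had an unadjusted p under 0.05. The covariate does not overlap between the groups, at 7.85 to 9.71 in depleted and 4.11 to 5.05 in control libraries.

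**Figure D2:**
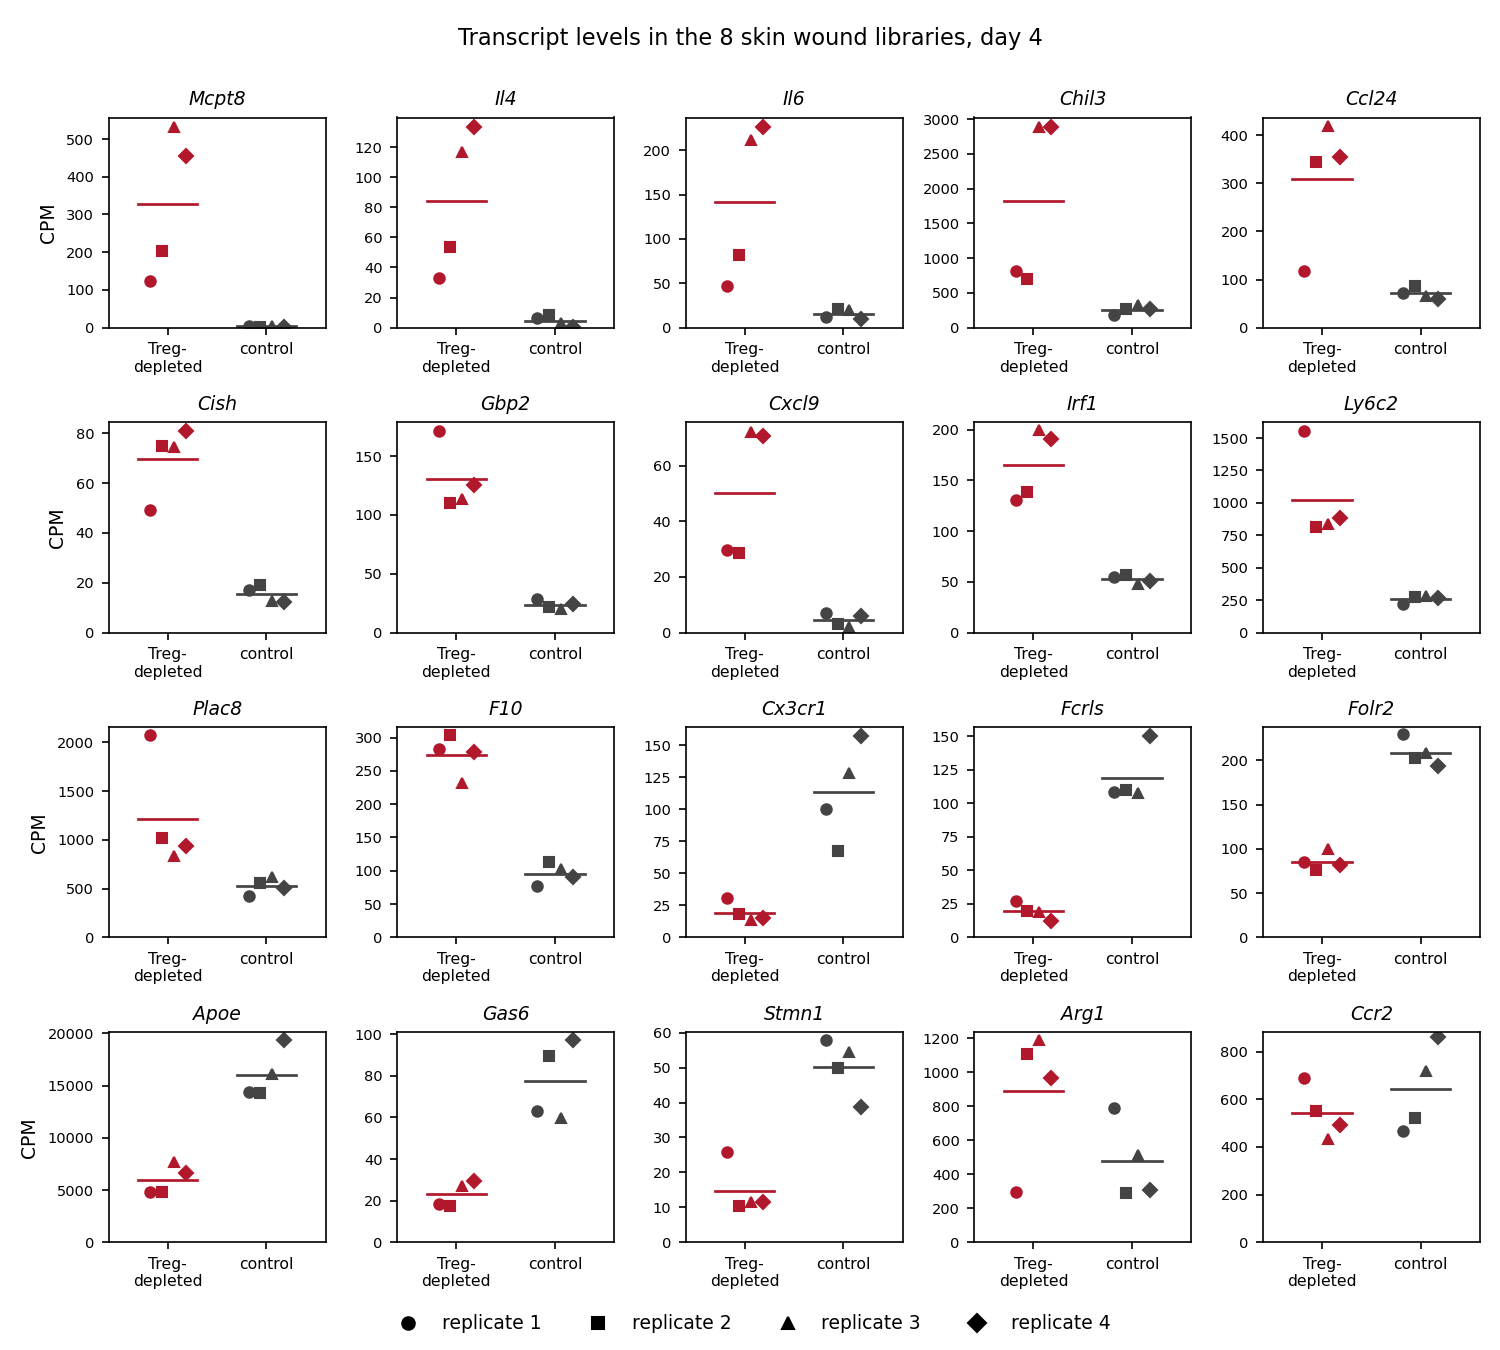
CPM of 20 chosen genes in each of the 4 depleted (left in each panel) and 4 control (right) libraries of skin at day 4, on linear axes from 0, with 1 symbol a replicate and the group mean as a line. A reader should see that the groups of Mcpt8, Cxcl9, Ly6c2 and Cx3cr1 do not overlap, and that depleted replicates 3 and 4 are the highest for Mcpt8 and Il6.

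Genes of alternative activation, which interleukin 4 and interleukin 13 induce in macrophages, were higher in part. Of 24 tested, 9 rose, 0 fell and 15 did not pass, and the median log2 change was 0.53. Without depleted replicates 3 and 4 the count was 7. Chil3†, which encodes the secreted chitinase-like protein Ym1, stood at 816, 697, 2889 and 2886 CPM in depleted and 178, 266, 319 and 269.8 CPM in control libraries (log2 change 2.82 ± 0.44, adjusted p = 0.00248). Depleted replicates 3 and 4 were the highest, and all 4 depleted libraries lay above the controls. Ccl24, the gene of the eosinophil-attracting chemokine eotaxin-2, had 118, 345, 419 and 354 CPM in depleted and 72.5, 86.4, 66.4 and 59.6 CPM in control libraries (log2 change 2.12 ± 0.41, adjusted p = 0.011). The groups again did not overlap, and depleted replicate 1 was the nearest to the controls. Without depleted replicates 3 and 4 it did not pass (log2 change 1.71, adjusted p = 0.098).

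Cish, which encodes a feedback inhibitor that cytokines signalling through STAT5 induce, had 49.2, 74.8, 74.3 and 80.9 CPM in depleted and 17.2, 19.0, 12.6 and 12.3 CPM in control libraries (log2 change 2.19 ± 0.28, adjusted p = 7.43e-05). Socs2†, of the same inhibitor family, had 23.6, 64.8, 46.9 and 51.2 CPM in depleted and 17.7, 18.2, 19.1 and 15.4 CPM in control libraries (log2 change 1.39 ± 0.28, adjusted p = 0.00676). Clec7a, the gene of the beta-glucan receptor dectin-1, had 257, 343, 293 and 323 CPM in depleted and 101, 112, 104 and 117 CPM in control libraries (log2 change 1.49 ± 0.19, adjusted p = 4.99e-05). Depleted replicate 1 was the lowest depleted library for all 3 genes, and the groups did not overlap. Cdh1, the E-cadherin gene, had 12.7, 14.6, 21.3 and 27.2 CPM in depleted and 2.03, 2.64, 1.79 and 2.40 CPM in control libraries (log2 change 3.11 ± 0.37, adjusted p = 1.83e-05). Pdcd1lg2, which encodes the PD-1 ligand PD-L2, had 10.7, 28.5, 16.8 and 21.2 CPM in depleted and 5.32, 7.62, 2.59 and 4.46 CPM in control libraries (log2 change 1.97 ± 0.36, adjusted p = 0.0026). Ccl17, a chemokine gene of the type 2 response, rose (log2 change 1.55, adjusted p = 0.0435), a call lost without any of depleted 1 and 2 and control 1, 3 and 4 (adjusted p up to 0.116). Another that rose was Chil4† (log2 change 2.11, adjusted p = 0.0181), a call lost without any of depleted 3 and 4 and control 1, 2 and 4 (adjusted p up to 0.095).

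Other genes of the programme did not pass. Arg1, the arginase 1 gene, had 298, 1106, 1190.4 and 963 CPM in depleted and 791, 289, 510.3 and 309.5 CPM in control libraries, and the groups overlapped widely (log2 change 0.90 ± 0.45, adjusted p = 0.357). Retnla†, which encodes the secreted protein RELM-alpha, had 171, 217, 158 and 142 CPM in depleted and 292, 265, 248 and 146 CPM in control libraries (log2 change -0.47 ± 0.30, adjusted p = 0.49). Mrc1, the mannose receptor gene, had 214, 307, 475 and 503 CPM in depleted and 265, 302, 305 and 373 CPM in control libraries (log2 change 0.27 ± 0.24, adjusted p = 0.658). Retnla was thus on average lower in depleted libraries and Arg1 and Mrc1 higher, each within the spread of the libraries. Slc7a2, which encodes a transporter of arginine, rose, at 15.7, 30.4, 17.9 and 22.7 CPM in depleted and 3.80, 3.52, 2.79 and 0.686 CPM in control libraries (log2 change 2.94 ± 0.34, adjusted p = 1.83e-05). Ass1†, which encodes an enzyme that remakes arginine from citrulline, rose as well (log2 change 1.81, adjusted p = 0.0171), a call lost without any of control 1, 3 and 4 (adjusted p up to 0.0589).

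Genes that interferon-gamma induces were higher, and the summed level of the interferon response list was 4572 to 7498 CPM in depleted and 3479 to 4034 CPM in control libraries. Of 45 interferon response genes tested, 21 rose, 0 fell and 24 did not pass, with a median log2 change of 0.73, and the count was 21 also without depleted replicates 3 and 4. Without depleted replicate 1, 3 members fell, and without control replicate 1, 1 fell. Several guanylate-binding protein genes, whose GTPases attack vacuoles that hold microbes, were among the risen members. Gbp2 stood at 171, 110.5, 113 and 126 CPM in depleted and 28.9, 21.7, 20.1 and 24.3 CPM in control libraries (log2 change 2.46 ± 0.23, adjusted p = 1.23e-06). Gbp4† had 57.2, 43.7, 25.9 and 34.3 CPM in depleted and 4.31, 5.57, 3.59 and 5.83 CPM in control libraries (log2 change 3.08 ± 0.33, adjusted p = 7.51e-06). Gbp8† had 44.8, 40.2, 42.0 and 37.9 CPM in depleted and 2.53, 4.40, 3.39 and 6.17 CPM in control libraries (log2 change 3.36 ± 0.28, adjusted p = 1.14e-07). The lowest depleted library was above the highest control library in all 3 genes, and all 3 were highest in depleted replicate 1. Gbp5 had 21.9, 14.3, 21.0 and 17.5 CPM in depleted and 6.34, 6.45, 3.39 and 6.51 CPM in control libraries (log2 change 1.74 ± 0.32, adjusted p = 0.00222). Of the 12 guanylate-binding and immunity-related GTPases on the list, 10 rose and 2, Igtp and Irgm2, did not pass.

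Irf1, which encodes a transcription factor at the centre of the interferon-gamma response, had 131, 139, 199.6 and 191 CPM in depleted and 55.0, 57.1, 47.6 and 50.4 CPM in control libraries (log2 change 1.65 ± 0.17, adjusted p = 3.59e-06). Socs1, the gene of a feedback inhibitor of this pathway, had 45.8, 57.3, 58.8 and 54.1 CPM in depleted and 21.0, 14.1, 21.7 and 17.5 CPM in control libraries (log2 change 1.53 ± 0.19, adjusted p = 2.77e-05). Cxcl9, which encodes a chemokine that attracts T cells through CXCR3 and responds chiefly to interferon-gamma, had 29.6, 28.5, 72.1 and 70.7 CPM in depleted and 7.10, 2.93, 1.99 and 5.83 CPM in control libraries (log2 change 3.53 ± 0.46, adjusted p = 0.00024). The groups did not overlap for any of these 3 genes, and depleted replicates 3 and 4 were highest for Cxcl9 and Irf1. Cxcl10, which encodes another ligand of CXCR3 that also responds to type I interferon, had 78.1, 74.2, 76.2 and 92.4 CPM in depleted and 55.5, 57.4, 81.5 and 83.3 CPM in control libraries, with overlapping groups (log2 change 0.21 ± 0.18, adjusted p = 0.649). AW112010, an interferon-inducible transcript, stood at 772, 673, 823 and 742 CPM in depleted and 172, 144, 145 and 125 CPM in control libraries and had the smallest adjusted p of the genes printed here (log2 change 2.36 ± 0.14, adjusted p = 3.67e-10).

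The antiviral genes of the list, which type I interferon induces strongly, did not move with them. None of 13 such genes (Ifit1, Ifit2, Ifit3, Isg15, Rsad2, Mx1, Oas1a, Oas2, Oasl1, Oasl2, Ifi44, Usp18 and Irf7, grouped after their values were seen) passed, and their log2 changes ran from -1.09 (Ifit3) to 0.38 (Ifi44). Isg15, which encodes a ubiquitin-like modifier, had 217, 144, 112 and 136 CPM in depleted and 120.4, 146, 135 and 105 CPM in control libraries (log2 change 0.27 ± 0.25, adjusted p = 0.671). Irf7, a transcription factor gene of the type I response, had 841, 598, 187 and 305 CPM in depleted and 573, 601, 496 and 567 CPM in control libraries (log2 change -0.21 ± 0.40, adjusted p = 0.862). The groups overlapped in both. The interferon-gamma gene Ifng held 2 counts over the depleted and 1 over the control libraries, too few for a test.

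The promoters of 4 of the risen genes are shown because they hold letters to which the factors of these pathways bind, STAT dimers at TTCNNNGAA and interferon regulatory factors at TTTCNNTTTC. The RefSeq sequences (GRCm38.p6) cover the 250 bases before the annotated start, 5′ to 3′ on the gene's strand, with matches on either strand in capitals. Gbp2 (chr3:142620413-142620662, + strand) holds 1 match of TTTCNNTTTC, Gbp5 (chr3:142496684-142496933, + strand) 2 of TTCNNNGAA and 1 of TTTCNNTTTC, Irf1 (chr11:53769764-53770013, + strand) 1 of TTCNNNGAA, and Socs1 (chr16:10785537-10785786, - strand) 2 of TTTCNNTTTC that overlap.
Gbp2: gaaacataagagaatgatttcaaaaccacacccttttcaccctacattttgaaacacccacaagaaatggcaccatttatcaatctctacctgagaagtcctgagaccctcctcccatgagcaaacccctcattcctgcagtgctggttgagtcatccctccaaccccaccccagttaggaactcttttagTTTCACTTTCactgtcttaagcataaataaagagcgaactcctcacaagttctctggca
Gbp5: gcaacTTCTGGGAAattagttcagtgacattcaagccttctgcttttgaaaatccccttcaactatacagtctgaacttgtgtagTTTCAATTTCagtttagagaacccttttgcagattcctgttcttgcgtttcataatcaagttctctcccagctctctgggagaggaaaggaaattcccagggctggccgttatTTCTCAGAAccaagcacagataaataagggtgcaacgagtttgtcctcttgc
Irf1: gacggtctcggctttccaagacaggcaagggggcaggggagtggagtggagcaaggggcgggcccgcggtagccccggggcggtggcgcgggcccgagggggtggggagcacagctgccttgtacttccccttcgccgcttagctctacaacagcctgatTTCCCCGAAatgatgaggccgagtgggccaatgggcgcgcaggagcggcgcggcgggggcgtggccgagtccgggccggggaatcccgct
Socs1: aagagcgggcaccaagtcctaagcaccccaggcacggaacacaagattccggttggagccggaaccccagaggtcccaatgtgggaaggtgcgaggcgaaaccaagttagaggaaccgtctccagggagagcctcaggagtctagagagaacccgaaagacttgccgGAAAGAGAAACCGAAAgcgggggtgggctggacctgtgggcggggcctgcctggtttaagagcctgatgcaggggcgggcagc
Of the 21 risen genes of the list, 15 had a promoter in the table, of which 5 held TTCNNNGAA and 7 held TTTCNNTTTC. Of 27025 genes, each taken by its first promoter of this length, 7.18% held TTCNNNGAA and 3.04% held TTTCNNTTTC. All members of the list were chosen as interferon response genes, and those that did not pass were not counted. These shares therefore do not set the risen genes apart from the rest of the list. A match describes the letters and does not show binding.

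Genes of the immunoproteasome and of peptide transport rose together. All 5 tested (Psmb8, Psmb9, Psmb10, Tap1 and Tap2) passed, with log2 changes between 0.75 (Tap2) and 1.08 (Psmb10). Psmb10, a catalytic subunit gene, had 565, 415, 406 and 369 CPM in depleted and 196, 205, 225 and 203 CPM in control libraries (log2 change 1.08 ± 0.15, adjusted p = 9.51e-05). Tap1, a subunit gene of the transporter that feeds peptides to MHC class I, had 278, 226, 162 and 172 CPM in depleted and 98.1, 120.4, 92.1 and 110.4 CPM in control libraries (log2 change 0.99 ± 0.16, adjusted p = 0.000457). Depleted replicate 1 was the highest for both, and no depleted library reached down to a control. Of 10 MHC class I genes, 3 rose, 0 fell and 7 did not pass, with a median of 0.47. H2-K1†, a class I heavy chain gene, had 2028, 1989.8, 1993 and 1996 CPM in depleted and 1482, 1438, 1375 and 1384 CPM in control libraries (log2 change 0.50 ± 0.10, adjusted p = 0.00736). Within each group the libraries of H2-K1 lay close together, so that a log2 change of 0.50 separated them. MHC class II genes, which present antigen to helper T cells, had 1 rise (H2-DMa), 1 fall (H2-Oa) and 8 that did not pass among 10, with a median of -0.12. H2-Ab1 had 2437, 3703, 3075 and 2967 CPM in depleted and 2813, 3049, 3189 and 4448 CPM in control libraries (log2 change -0.15 ± 0.16, adjusted p = 0.721), with overlapping groups. The H2-DMa call (log2 change 0.64, adjusted p = 0.0157) was lost without any of control 1, 2 and 3 (adjusted p up to 0.0625), and the H2-Oa call (log2 change -1.68, adjusted p = 0.0389) without any of depleted 1 and 3 and control 1, 2 and 4 (adjusted p up to 0.127).

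Of 17 checkpoint and costimulatory genes tested, 4 rose (Cd274, Lilrb4a, Pdcd1lg2 and Havcr2), 0 fell and 13 did not pass, with a median of 0.11. Cd274, which encodes the PD-1 ligand PD-L1, had 37.5, 46.6, 35.1 and 41.0 CPM in depleted and 20.8, 19.9, 10.8 and 9.60 CPM in control libraries (log2 change 1.39 ± 0.25, adjusted p = 0.00197). Lilrb4a†, which encodes an inhibitory receptor of myeloid cells, had 2082, 1760.4, 1599.8 and 1978 CPM in depleted and 1017, 1193, 1009 and 1243 CPM in control libraries (log2 change 0.73 ± 0.13, adjusted p = 0.00142). Both genes kept the groups apart. The Havcr2 call (log2 change 0.80, adjusted p = 0.0117), of the gene for TIM-3, was lost without control 3 (adjusted p up to 0.0509).

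Genes of blood monocytes were higher. Of 17 tested, 6 rose, 0 fell and 11 did not pass, and the median log2 change was 0.46. The count was 6 also without depleted replicates 3 and 4. Ly6c2†, whose product marks classical monocytes, stood at 1554, 815, 839 and 883 CPM in depleted and 219, 274, 283 and 267 CPM in control libraries (log2 change 1.97 ± 0.24, adjusted p = 5.3e-05). Depleted replicate 1 was the highest by far, and the other 3 still lay above all controls. F10, the gene of coagulation factor X, had 283, 304, 232 and 279 CPM in depleted and 77.1, 113, 103 and 90.2 CPM in control libraries (log2 change 1.52 ± 0.15, adjusted p = 1.18e-06). Plac8, a gene high in monocytes that have just left the marrow, had 2072, 1020.0, 833 and 936 CPM in depleted and 429, 555, 616 and 511 CPM in control libraries (log2 change 1.20 ± 0.24, adjusted p = 0.00778). Plac8 shared the high depleted replicate 1, whereas F10 was even. Gpr141 also rose (log2 change 0.95, adjusted p = 0.0477), as did Chil3, given above. Ccr2, the receptor gene that brings monocytes out of the marrow, had 690.0, 549, 434 and 490.3 CPM in depleted and 465, 521, 719 and 860.4 CPM in control libraries and overlapping groups (log2 change -0.25 ± 0.19, adjusted p = 0.58). Ly6i†, a neighbour of Ly6c2 in the same gene family, had 127, 96.5, 53.8 and 68.0 CPM in depleted and 12.7, 14.7, 14.6 and 15.4 CPM in control libraries (log2 change 2.59 ± 0.26, adjusted p = 3.84e-06). Jaml, which encodes an adhesion molecule of leukocytes, had 76.6, 88.8, 115 and 119 CPM in depleted and 12.4, 33.4, 18.9 and 19.5 CPM in control libraries (log2 change 2.25 ± 0.26, adjusted p = 2.14e-05).

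Genes of resident macrophages were lower. Of 24 tested, 11 fell, 0 rose and 13 did not pass, with a median log2 change of -0.81. Cx3cr1, the gene of the fractalkine receptor of tissue macrophages and patrolling monocytes, had 30.8, 18.5, 13.3 and 15.0 CPM in depleted and 100.1, 67.4, 128 and 157 CPM in control libraries (log2 change -2.54 ± 0.29, adjusted p = 2.96e-05). Every depleted library was below every control library, and depleted replicate 1 was the nearest to the controls. Folr2, which encodes folate receptor beta, had 85.0, 75.8, 99.7 and 82.0 CPM in depleted and 229.6, 203, 208 and 194 CPM in control libraries (log2 change -1.29 ± 0.23, adjusted p = 0.00222). Gas6, the gene of a bridge between dying cells and the receptors that engulf them, had 18.2, 17.5, 27.1 and 29.5 CPM in depleted and 62.9, 89.7, 59.6 and 97.0 CPM in control libraries (log2 change -1.73 ± 0.28, adjusted p = 0.000874). The groups did not overlap for either gene, and Folr2 was more even within them than Gas6. Cd209f†, a lectin gene, had 0.995, 3.89, 6.35 and 6.45 CPM in depleted and 27.1, 23.4, 21.3 and 50.05 CPM in control libraries (log2 change -2.75 ± 0.54, adjusted p = 0.00967). Fcna, the ficolin A gene, had 8.21, 5.18, 5.25 and 4.58 CPM in depleted and 20.5, 15.5, 30.7 and 19.9 CPM in control libraries (log2 change -1.91 ± 0.38, adjusted p = 0.00579). Igfbp4† (log2 change -1.34, adjusted p = 0.000285), which encodes a binding protein of insulin-like growth factors, Cbr2† (log2 change -1.17, adjusted p = 0.0104), a carbonyl reductase gene, and Selenop (log2 change -0.91, adjusted p = 0.0118), which encodes a selenium carrier, fell as well. The calls of Fcgrt (log2 change -0.67, adjusted p = 0.0306), C1qb (log2 change -0.68, adjusted p = 0.0444) and C1qc (log2 change -0.71, adjusted p = 0.0389) rested on more libraries: Fcgrt was lost without any of depleted 1, 2 and 4 and control 2, 3 and 4 (adjusted p up to 0.113), C1qb without any of depleted 1, 2 and 4 and control 1, 2, 3 and 4 (adjusted p up to 0.164) and C1qc without any of depleted 1, 2, 3 and 4 and control 1, 2, 3 and 4 (adjusted p up to 0.139). The Selenop call was lost without control 4 (adjusted p up to 0.0571).

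Other markers of resident cells stayed within the spread of the libraries. Lyve1, the hyaluronan receptor gene of macrophages along vessels, had 18.9, 11.0, 21.3 and 21.2 CPM in depleted and 12.4, 23.4, 42.5 and 25.4 CPM in control libraries (log2 change -0.52 ± 0.47, adjusted p = 0.663). The scavenger receptor gene Cd163 had 32.3, 88.8, 267 and 239 CPM in depleted and 71.5, 70.6, 81.3 and 84.7 CPM in control libraries (log2 change 1.03 ± 0.59, adjusted p = 0.44). Stab1, which encodes another scavenger receptor, had 159, 152, 231 and 250.4 CPM in depleted and 235, 2387, 203 and 267 CPM in control libraries (log2 change -1.96 ± 0.71, adjusted p = 0.176). These groups overlapped. When each of the 8 libraries was left out in turn, 7 to 10 members of the list fell (7 without control replicate 4), and 10 fell without depleted replicates 3 and 4.

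Some genes outside the list, chosen after their values were seen, fell as well. Fcrls, an Fc receptor-like gene high in resident macrophages and microglia, had 27.4, 19.8, 18.8 and 11.9 CPM in depleted and 108, 109.9, 108 and 149.8 CPM in control libraries (log2 change -2.62 ± 0.25, adjusted p = 1.53e-06). Ms4a7, a membrane protein gene of macrophages, had 472, 479, 610.1 and 537 CPM in depleted and 1141, 1091, 1308 and 1419.8 CPM in control libraries (log2 change -1.24 ± 0.18, adjusted p = 0.000163). Gpr34, a receptor gene for lysophosphatidylserine, had 4.23, 6.15, 4.69 and 6.66 CPM in depleted and 16.2, 16.1, 18.5 and 30.2 CPM in control libraries (log2 change -1.88 ± 0.29, adjusted p = 0.000385). The groups were apart in all 3 genes. Tmem176b, a gene of antigen-presenting cells, had 102, 88.4, 88.6 and 99.0 CPM in depleted and 192, 256, 276 and 331 CPM in control libraries (log2 change -1.48 ± 0.19, adjusted p = 5.1e-05). Its neighbour Tmem176a followed it (log2 change -1.57, adjusted p = 7.92e-05). Mef2c, which encodes a transcription factor, fell (log2 change -0.91, adjusted p = 0.0018). Slc40a1, the gene of the iron exporter ferroportin, fell (log2 change -2.03, adjusted p = 0.0138), a call lost without depleted 3 (adjusted p up to 0.0513). Hpgd, the gene of an enzyme that breaks down prostaglandins, fell too (log2 change -2.45, adjusted p = 0.00024). Both are on a list of 15 iron and haem genes, of which 13 did not pass.

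Lipid-associated macrophage genes, which mark cells that take up lipid and debris, had 4 falls, 0 rises and 19 that did not pass among 23 tested, with a median of -0.17. The count of falls was 2 without any of depleted 2 and 4 and control 1, 2 and 3. Apoe, which encodes a lipid-carrying apolipoprotein, stood at 4784, 4823, 7696 and 6582 CPM in depleted and 14367, 14272, 16107 and 19382 CPM in control libraries (log2 change -1.42 ± 0.24, adjusted p = 0.00155). Every depleted library was below every control library, and depleted replicates 1 and 2 were the lowest. Syngr1, a vesicle protein gene, had 15.9, 11.0, 9.39 and 13.3 CPM in depleted and 41.8, 36.0, 34.1 and 38.7 CPM in control libraries (log2 change -1.59 ± 0.27, adjusted p = 0.00128). Trem2, a lipid-sensing receptor gene, fell (log2 change -0.67, adjusted p = 0.0476), a call lost without any of depleted 1, 2 and 4 and control 1, 2, 3 and 4 (adjusted p up to 0.129). So did Cd63† (log2 change -0.49, adjusted p = 0.0495), a call lost without any of depleted 1, 2 and 4 and control 1, 2, 3 and 4 (adjusted p up to 0.15). Spp1†, the osteopontin gene, had 3029.8, 3899, 5103 and 2756 CPM in depleted and 2783, 4489, 3847 and 3587 CPM in control libraries, with overlapping groups (log2 change 0.0079 ± 0.27, adjusted p = 0.993).

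Genes of dividing cells were lower. All 36 cell cycle genes tested had a negative log2 change, 13 fell and 23 did not pass, and the median was -1.06. Stmn1†, which encodes a microtubule regulator, had 25.9, 10.4, 11.6 and 11.4 CPM in depleted and 57.8, 49.8, 54.4 and 38.7 CPM in control libraries (log2 change -1.75 ± 0.26, adjusted p = 0.000296). Top2a, the gene of a topoisomerase of dividing cells, had 22.1, 20.1, 13.5 and 15.0 CPM in depleted and 48.4, 33.7, 35.9 and 36.3 CPM in control libraries (log2 change -1.13 ± 0.22, adjusted p = 0.00442). Depleted replicate 1 was the nearest to the controls in both, and the groups did not overlap. Ccnb1†, the cyclin B1 gene, had 9.95, 6.80, 9.11 and 9.15 CPM in depleted and 24.8, 15.2, 21.3 and 24.0 CPM in control libraries (log2 change -1.28 ± 0.23, adjusted p = 0.00228). Cenpe, a kinetochore motor gene, had 4.97, 2.27, 2.48 and 2.50 CPM in depleted and 14.7, 8.79, 13.2 and 7.20 CPM in control libraries (log2 change -1.84 ± 0.33, adjusted p = 0.0018). Mki67, whose product Ki-67 marks cycling cells, had 6.96, 6.15, 12.7 and 11.9 CPM in depleted and 13.2, 12.01, 14.0 and 16.1 CPM in control libraries, with overlapping groups (log2 change -0.54 ± 0.31, adjusted p = 0.41). Ccnd1, which encodes cyclin D1 and was not on the list, fell (log2 change -1.34 ± 0.24, adjusted p = 0.00188). The count of falls was 6 without depleted replicate 4, 7 without control replicate 1, 7 without control replicate 3 and 18 without depleted replicate 1. Without depleted replicates 3 and 4 together 2 members fell and the median was -0.78.

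Among inflammatory cytokines and chemokines, 4 of 30 rose, 0 fell and 26 did not pass, with a median of 0.30. Il6, the interleukin 6 gene, had 47.0, 81.9, 211 and 226 CPM in depleted and 12.4, 20.5, 20.1 and 10.3 CPM in control libraries (log2 change 3.15 ± 0.56, adjusted p = 0.00694). All depleted libraries were above all controls, and depleted replicates 3 and 4 were the highest. Acod1, the gene of the enzyme that makes itaconate, had 45.8, 68.7, 94.4 and 115 CPM in depleted and 28.4, 24.0, 21.1 and 16.5 CPM in control libraries (log2 change 1.84 ± 0.26, adjusted p = 0.000206). Osm, the oncostatin M gene, rose (log2 change 0.78, adjusted p = 0.00967). So did Ccl3 (log2 change 0.96, adjusted p = 0.0434), a call lost without any of depleted 3 and 4 and control 1, 2, 3 and 4 (adjusted p up to 0.138). Il1b, the interleukin 1 beta gene, had 676, 1277, 1624 and 1677 CPM in depleted and 1286, 1162, 1315 and 1031 CPM in control libraries (log2 change 0.13 ± 0.21, adjusted p = 0.8288). Tnf, the tumour necrosis factor gene, had 105, 178, 202 and 216 CPM in depleted and 177, 120.4, 129 and 89.8 CPM in control libraries (log2 change 0.44 ± 0.21, adjusted p = 0.286). Both overlapped. Il10, which encodes an anti-inflammatory cytokine, had 2.24, 5.51, 8.01 and 7.90 CPM in depleted and 13.7, 8.50, 16.1 and 10.6 CPM in control libraries, lower in all depleted libraries than in any control, though it did not pass (log2 change -1.05 ± 0.38, adjusted p = 0.139). Nos2, the inducible nitric oxide synthase gene, had 1.49, 17.5, 9.39 and 9.36 CPM in depleted and 6.59, 1.47, 2.19 and 0.686 CPM in control libraries (log2 change 1.70 ± 0.81, adjusted p = 0.321).

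Of 18 repair growth factor genes tested, 4 rose (Csf1, Osm, Hbegf and Hgf), 2 fell (Pdgfb and Gdf15) and 12 did not pass, with a median of -0.16. The count of rises was 2 without any of depleted 3 and 4 and control 2, 3 and 4, and that of falls 1 without any of depleted 1 and 3 and control 1, 2, 3 and 4. Csf1, which encodes the main survival factor of macrophages, had 21.6, 41.8, 56.0 and 57.0 CPM in depleted and 12.9, 12.9, 13.0 and 10.3 CPM in control libraries (log2 change 1.84 ± 0.25, adjusted p = 0.000104). Pdgfb, the gene of a growth factor for pericytes and fibroblasts, had 3.48, 4.53, 2.48 and 2.08 CPM in depleted and 9.89, 8.21, 6.98 and 12.3 CPM in control libraries (log2 change -1.58 ± 0.33, adjusted p = 0.00686). Neither overlapped. The calls of Hbegf (log2 change 1.08, adjusted p = 0.042), Hgf† (log2 change 1.59, adjusted p = 0.0397) and Gdf15 (log2 change -1.35, adjusted p = 0.0444) were lost without any of depleted 2, 3 and 4 and control 2, 3 and 4 (adjusted p up to 0.131), any of depleted 3 and 4 and control 2, 3 and 4 (adjusted p up to 0.187) and any of depleted 1, 2 and 3 and control 1, 2, 3 and 4 (adjusted p up to 0.134) in this order. Vegfa, which drives vessel growth, had 39.0, 101, 78.1 and 80.3 CPM in depleted and 117, 62.4, 58.2 and 72.3 CPM in control libraries (log2 change -0.058 ± 0.26, adjusted p = 0.951). Igf1, the insulin-like growth factor 1 gene, had 59.7, 52.5, 91.9 and 62.4 CPM in depleted and 150.3, 141, 133 and 172 CPM in control libraries, apart but not passing (log2 change -1.16 ± 0.35, adjusted p = 0.0867). Tgfb1 had 25.1, 36.3, 28.4 and 22.9 CPM in depleted and 19.0, 20.8, 15.0 and 21.3 CPM in control libraries, also apart and not passing (log2 change 0.57 ± 0.19, adjusted p = 0.107).

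Of 22 matrix remodelling genes, 3 rose (Mmp13, Plaur and Tgfbi), 0 fell and 19 did not pass, with a median of 0.081. The count of rises was 5 without depleted replicate 1, 0 without control replicate 3 and 1 without any other library. Mmp13, a collagenase gene, had 21.9, 69.6, 26.8 and 28.3 CPM in depleted and 12.4, 9.08, 7.77 and 8.23 CPM in control libraries (log2 change 1.95 ± 0.51, adjusted p = 0.0481), a call lost without any of depleted 2, 3 and 4 and control 1, 2, 3 and 4 (adjusted p up to 0.133). Thbs1, the thrombospondin 1 gene, had 366, 767, 716 and 720.1 CPM in depleted and 853, 1094, 748 and 627 CPM in control libraries and did not pass (log2 change -0.37 ± 0.28, adjusted p = 0.589). Of 18 complement genes, 1 rose, 2 fell (C1qb and C1qc, given above) and 15 did not pass, with 1 fall without depleted replicate 3 and 0 without any other library. C3, the central component, had 117, 142, 151 and 185 CPM in depleted and 54.2, 56.9, 58.6 and 64.8 CPM in control libraries (log2 change 1.35 ± 0.19, adjusted p = 0.000157), each depleted library above each control. Of 20 efferocytosis and scavenging genes, 3 rose (Msr1, Havcr2 and Cd300lf), 2 fell (Gas6 and Itgb5†) and 15 did not pass. Without control replicate 3 the rises numbered 1, and without any of depleted 1 and 3 and control 1, 3 and 4 the falls numbered 1. Cd300lf, which encodes a receptor for phosphatidylserine, had 210.1, 210.2, 148 and 186 CPM in depleted and 109, 90.8, 67.4 and 95.6 CPM in control libraries (log2 change 1.06 ± 0.20, adjusted p = 0.00317).

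Several lists moved little. None of 34 oxidative phosphorylation genes, 13 mitochondrial transcripts, 27 sterol and fatty acid synthesis genes or 14 heat shock protein genes passed, with medians of 0.084, 0.017, 0.11 and -0.013 in this order. Of 30 glycolysis and hypoxia response genes 1 rose, Pkm† (log2 change 0.55, adjusted p = 0.0241), a pyruvate kinase gene, a call lost without any of depleted 2 and 3 and control 2, 3 and 4 (adjusted p up to 0.0971). Of 28 lysosome genes, 23 had a negative log2 change, and the median was -0.18. Of 16 NF-kappaB and feedback genes 1 fell, Cd83 (log2 change -0.82 ± 0.16, adjusted p = 0.00323), which encodes an activation marker. Among 24 genes of dissociation stress and the early response 1 rose, Egr3 (log2 change 2.58 ± 0.47, adjusted p = 0.0022), a transcription factor gene.

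**Figure D3:**
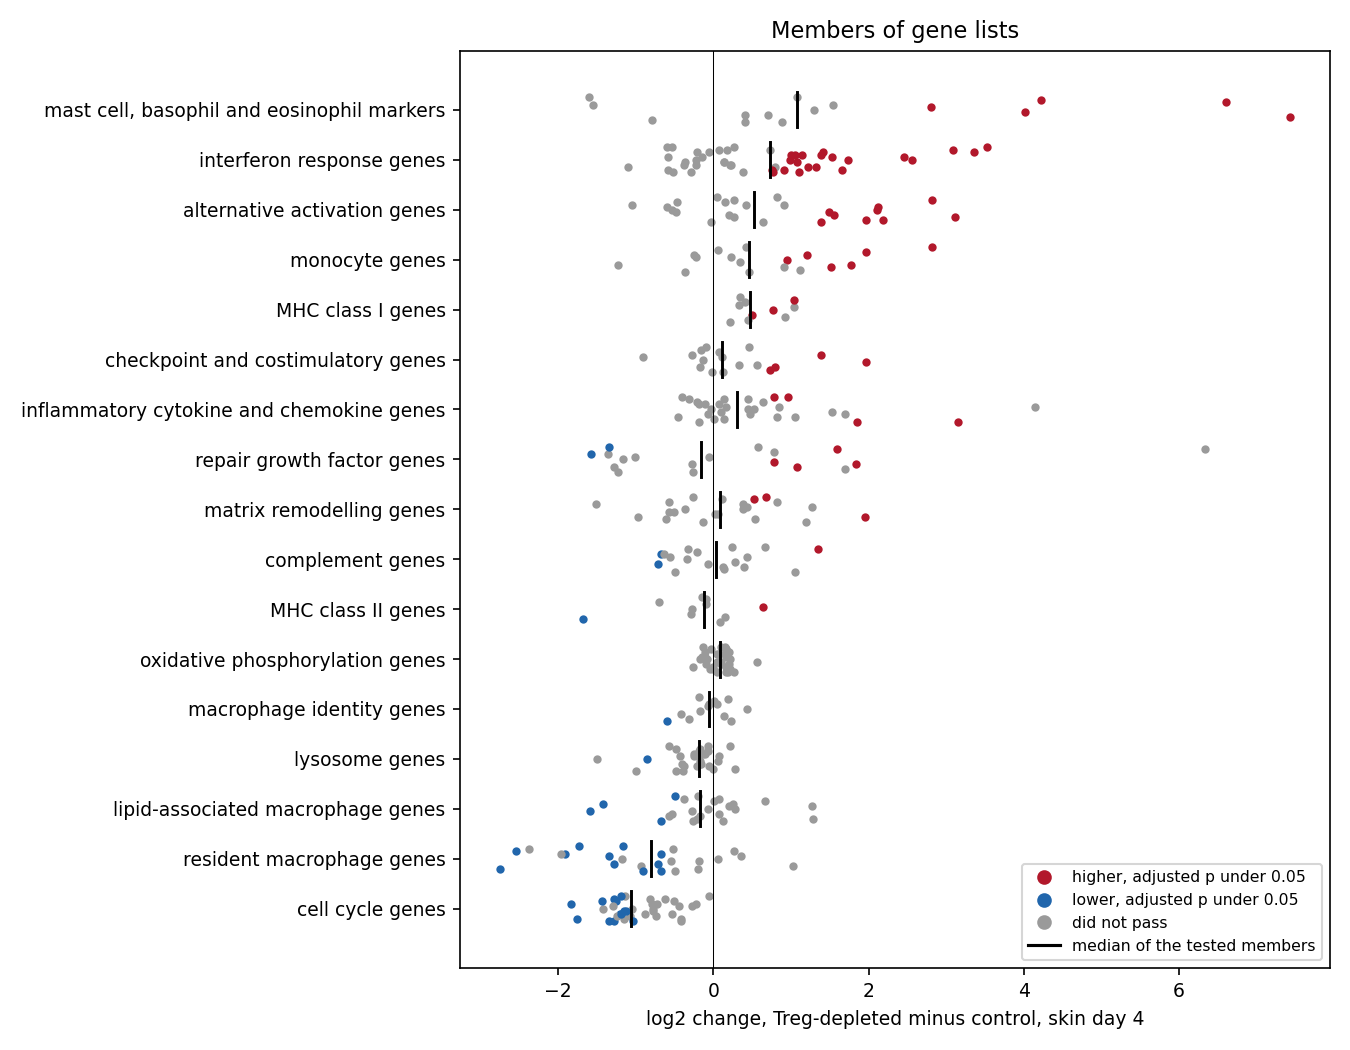
Log2 change (depleted minus control) of each tested member of the gene lists in skin at day 4, 1 point a gene, with members that passed coloured by direction and the list median as a black bar. A reader should see the interferon response list with 21 coloured points to the right of 0 and the resident macrophage and cell cycle lists with 11 and 13 coloured points to the left.

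Markers of other cells were read in the same libraries, and their part in the results above was not tested. Neutrophil markers summed to 761 to 1088 CPM in depleted and 452 to 731 CPM in control libraries, with 2 of 17 higher (Hdc and Cxcr2†) and 0 lower. Hdc was also among the basophil genes of the covariate above. Of the 17, 11 had a positive and 6 a negative log2 change. The Cxcr2 call (log2 change 2.01, adjusted p = 0.0228) was lost without any of depleted 3 and 4 and control 1 and 3 (adjusted p up to 0.105). T and NK cell markers summed to 109 to 333 CPM in depleted and 55.4 to 144 CPM in control libraries, with 2 of 9 higher and 0 lower. Gzmb, the granzyme B gene, had 0.995, 2.59, 6.63 and 7.90 CPM in depleted and 0.507, 0.586, 0 and 0.343 CPM in control libraries (log2 change 3.67 ± 0.86, adjusted p = 0.0173), a call lost without any of depleted 4 and control 3 and 4 (adjusted p up to 0.0689). Nkg7 also rose (log2 change 1.93, adjusted p = 0.0467), a call lost without any of depleted 2, 3 and 4 and control 1, 2 and 3 (adjusted p up to 0.156). Fibroblast and mural cell markers summed to 380.2 to 719.7 CPM in depleted and 364 to 1133 CPM in control libraries, with 0 of 17 higher and 1 lower. Of these 17, 16 had a negative log2 change, with a median of -0.78. The count of falls was 2 without control replicate 3 and 0 without any other library. Dendritic cell markers summed to 430.4 to 663 CPM in depleted and 432 to 613 CPM in control libraries. Among 10 of them 1 fell, the lectin gene Cd209a, with 11.7, 22.7, 10.8 and 7.49 CPM in depleted and 34.7, 49.2, 31.1 and 49.0 CPM in control libraries (log2 change -1.66 ± 0.26, adjusted p = 0.000379). Langerhans cell markers summed to 16.2 to 29.1 CPM in depleted and 4.98 to 6.38 CPM in control libraries, with 1 of 3 higher (Cdh1). Cdh1, given above among the alternative activation genes, was the only 1 of these 3 with a positive log2 change, and their median was -0.59. Erythroid and platelet markers summed to 2459 to 7735 CPM in depleted and 2636 to 6767 CPM in control libraries. Of 8 tested, 1 rose, Itga2b (log2 change 3.70, adjusted p = 0.000442), and 0 fell. Keratinocyte and hair follicle markers summed to 89.4 to 126 CPM in depleted and 93.8 to 118 CPM in control libraries, with 1 of 8 higher (Perp) and 0 lower, a rise lost without any of depleted 3 and 4 and control 1, 2 and 3. Their member Lor was at 0 in all 8 libraries, as was Ncr1, a defining marker of NK cells.

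**Figure D4:**
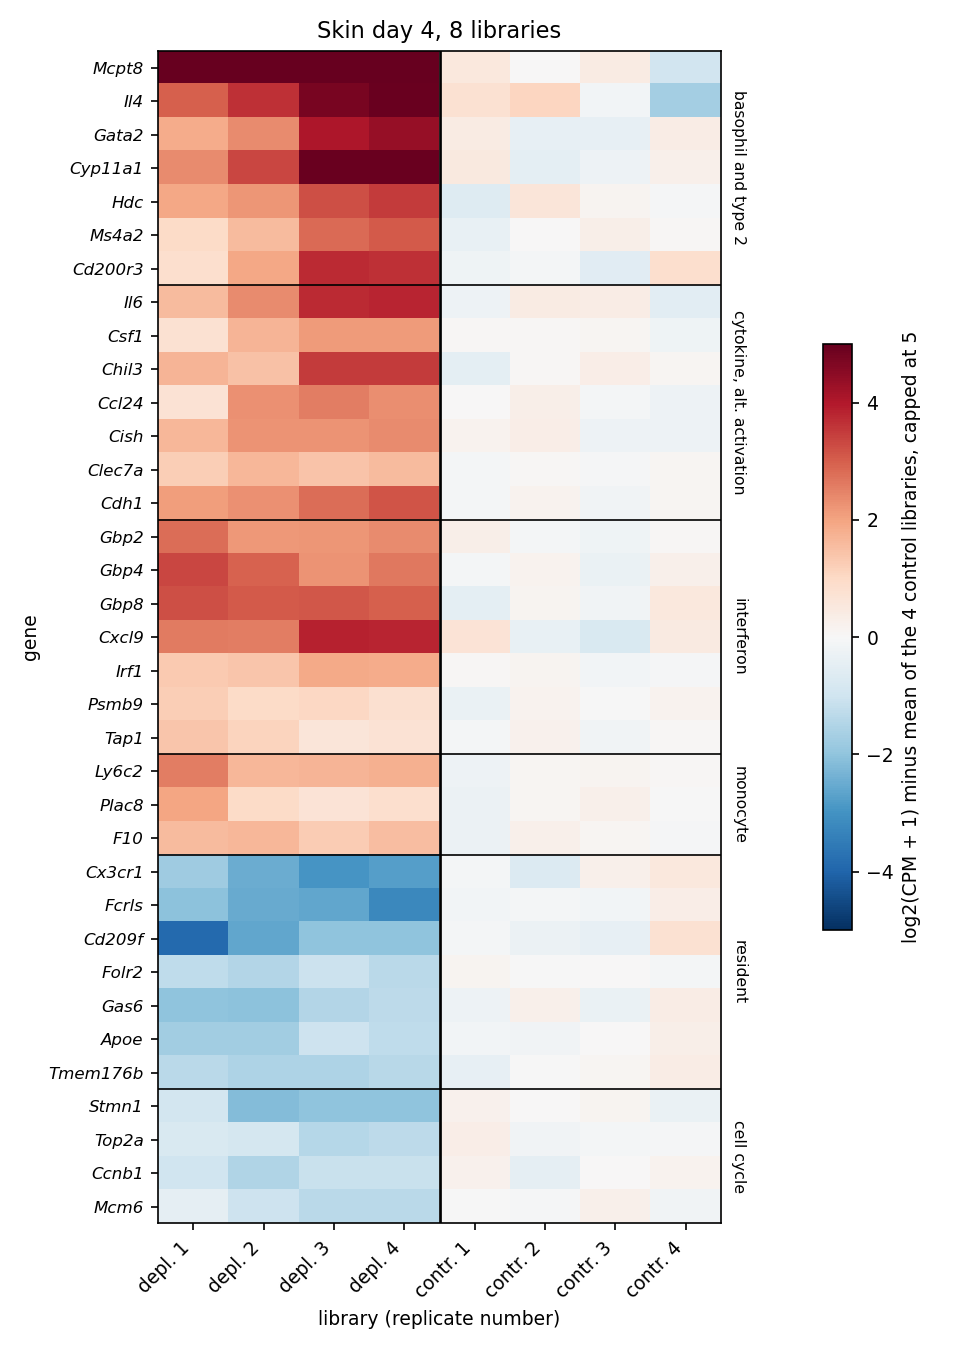
Heat map of log2(CPM + 1) of each of the 8 libraries minus the mean of the 4 control libraries for chosen genes, grouped by theme, with the 4 depleted libraries left of the 4 control libraries and the colour capped at 5. A reader should see the basophil genes strongest in depleted replicates 3 and 4, and the interferon response and monocyte genes raised in all 4 depleted libraries, most in replicate 1 for Gbp2 and Ly6c2.

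The depletion effect at day 4 was set against that in skin wounds at day 7 (4 depleted and 4 control libraries, with controls of their own), where 784 genes passed (6.21%), 372 higher (2.95%) and 412 lower (3.27%). The difference between the effects passed for 107 genes (0.848%), 74 with a more positive effect at day 4 (0.587%) and 33 with a more negative one (0.262%). By the rule for named genes given below, the largest differences more positive at day 4 were those of F5, P2rx1, Rab37, Septin1 and Sytl1. None of these passed at day 4 itself (adjusted p 0.055 to 0.769). The largest more negative ones were those of Cd209f, Ear10†, Gbp2b, Mfap4 and Rnase2a†. For interferon response genes the difference passed for 0 of 45, and the median effect was 0.73 at day 4 and 0.85 at day 7. Outside this list it passed for AW112010 (-0.80) and for the guanylate-binding protein gene Gbp2b, each more negative at day 4. Gbp2b did not pass at day 4 itself (log2 change 0.69, adjusted p = 0.703). Gbp2 changed by 2.46 ± 0.23 at day 4 and 2.88 ± 0.24 at day 7. Resident macrophage genes fell further at day 4: the difference passed for 4 of 24, and the list median was -0.81 at day 4 and -0.093 at day 7. Folr2 changed by -1.29 ± 0.23 at day 4 and 0.35 ± 0.23 at day 7 (difference -1.63 ± 0.32, adjusted p = 0.013). Cd209f changed by -2.75 ± 0.54 and 0.64 ± 0.49 in the same order (difference -3.40 ± 0.73, adjusted p = 0.0405). The difference also passed for Fcna (-2.50 ± 0.51, adjusted p = 0.0176) and Fcgrt (-1.23 ± 0.25, adjusted p = 0.0128). Cell cycle genes had a median of -1.06 at day 4 and 0.12 at day 7, and the difference passed for 5 of 36, among them Top2a (-1.13 ± 0.22 and 0.73 ± 0.22, difference -1.86 ± 0.31, adjusted p = 0.00507) and Stmn1 (difference -1.97 ± 0.36, adjusted p = 0.00919).

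For alternative activation genes the difference passed for 4 of 24. At day 7, 15 rose and 4 fell with a median of 1.38, whereas at day 4, 9 rose and 0 fell with a median of 0.53. Retnla changed by -0.47 ± 0.30 at day 4 and 2.32 ± 0.31 at day 7 (difference -2.78 ± 0.42, adjusted p = 0.00507). At day 7 it had 1414, 1199, 2190.3 and 2620.5 CPM in depleted libraries, against 199, 451, 330.4 and 508 CPM in control libraries. Rnase2a, an eosinophil-associated ribonuclease gene, changed by -0.48 ± 0.51 and 5.36 ± 0.47 (difference -5.84 ± 0.71, adjusted p = 0.000252). Mgl2, a lectin gene of alternatively activated macrophages, changed by 0.27 ± 0.19 and 1.86 ± 0.19 (difference -1.59 ± 0.27, adjusted p = 0.00507). The groups of these 3 genes overlapped at day 4, and every depleted library was above every control at day 7. For inflammatory cytokines and chemokines the difference passed for 3 of 30, Tnf, Acod1 and Clec4e, each more positive at day 4. Tnf changed by 0.44 ± 0.21 at day 4 and -1.70 ± 0.22 at day 7 (difference 2.14 ± 0.30, adjusted p = 0.00136). In the same order Acod1 changed by 1.84 ± 0.26 and -0.60 ± 0.25 (difference 2.45 ± 0.36, adjusted p = 0.00216). Csf1, of the repair growth factor list, changed by 1.84 ± 0.25 and -0.59 ± 0.24 (difference 2.43 ± 0.35, adjusted p = 0.0014). Clec4e, the gene of a receptor for microbial lipids, differed likewise (1.71 ± 0.33, adjusted p = 0.0128). For Mcpt8 the effect was 6.61 ± 0.63 at day 4 and 4.01 ± 0.51 at day 7, and for Il4 4.22 ± 0.77 and 0.66 ± 0.64. Neither difference passed (Mcpt8 adjusted p = 0.173, Il4 adjusted p = 0.14).

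Against the muscle defect at day 4 (3 depleted and 3 control libraries), in a fit of skin and muscle libraries together, the difference of the effects passed for 33 of 13730 genes (0.24%), 12 more positive in skin (0.0874%) and 21 more negative (0.153%). Mcpt8 changed by 6.61 ± 0.56 in skin and 0.63 ± 0.75 in muscle (difference 5.98 ± 1.00, adjusted p = 0.00957). In muscle it had 5.08, 7.02 and 1.93 CPM in depleted muscle libraries, against 3.22, 4.16 and 1.68 CPM in control muscle libraries. Chil3 changed by 2.82 ± 0.38 in skin and -0.12 ± 0.42 in muscle (difference 2.94 ± 0.56, adjusted p = 0.0222). Il6 changed by 3.15 ± 0.43 in skin and -0.53 ± 0.55 in muscle (difference 3.68 ± 0.70, adjusted p = 0.0221) and Ccl24 by 2.12 ± 0.35 in skin and -0.48 ± 0.40 in muscle (difference 2.61 ± 0.53, adjusted p = 0.0326). Among the genes that fell in skin, Cx3cr1 changed by -2.54 ± 0.24 in skin and -0.022 ± 0.25 in muscle (difference -2.51 ± 0.35, adjusted p = 0.000287). Fcrls changed by -2.61 ± 0.25 in skin and -0.14 ± 0.25 in muscle (difference -2.46 ± 0.35, adjusted p = 0.000366) and Stmn1 by -1.75 ± 0.23 in skin and 0.27 ± 0.23 in muscle (difference -2.02 ± 0.33, adjusted p = 0.00198). Mcpt8, Il6, Chil3 and Ccl24 were thus raised more in skin, and Cx3cr1, Fcrls and Stmn1 lowered more, in the fit with all libraries. Over 14 fits that each left out 1 library, the count of genes whose difference passed ranged from 8 to 88. It was lowest without control muscle replicate 1, where 12 of 75 genes followed lost their call. Which genes kept the call in each fit is not given here. Mcpt8 was the only 1 of 15 mast cell, basophil and eosinophil markers tested whose difference passed. Hspa1b, a heat shock gene, changed by 0.15 ± 0.17 in skin and -2.89 ± 0.30 in muscle (difference 3.04 ± 0.35, adjusted p = 6.47e-06), a difference that came from lower values in depleted muscle. No interferon response gene passed this test.

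**Figure D5:**
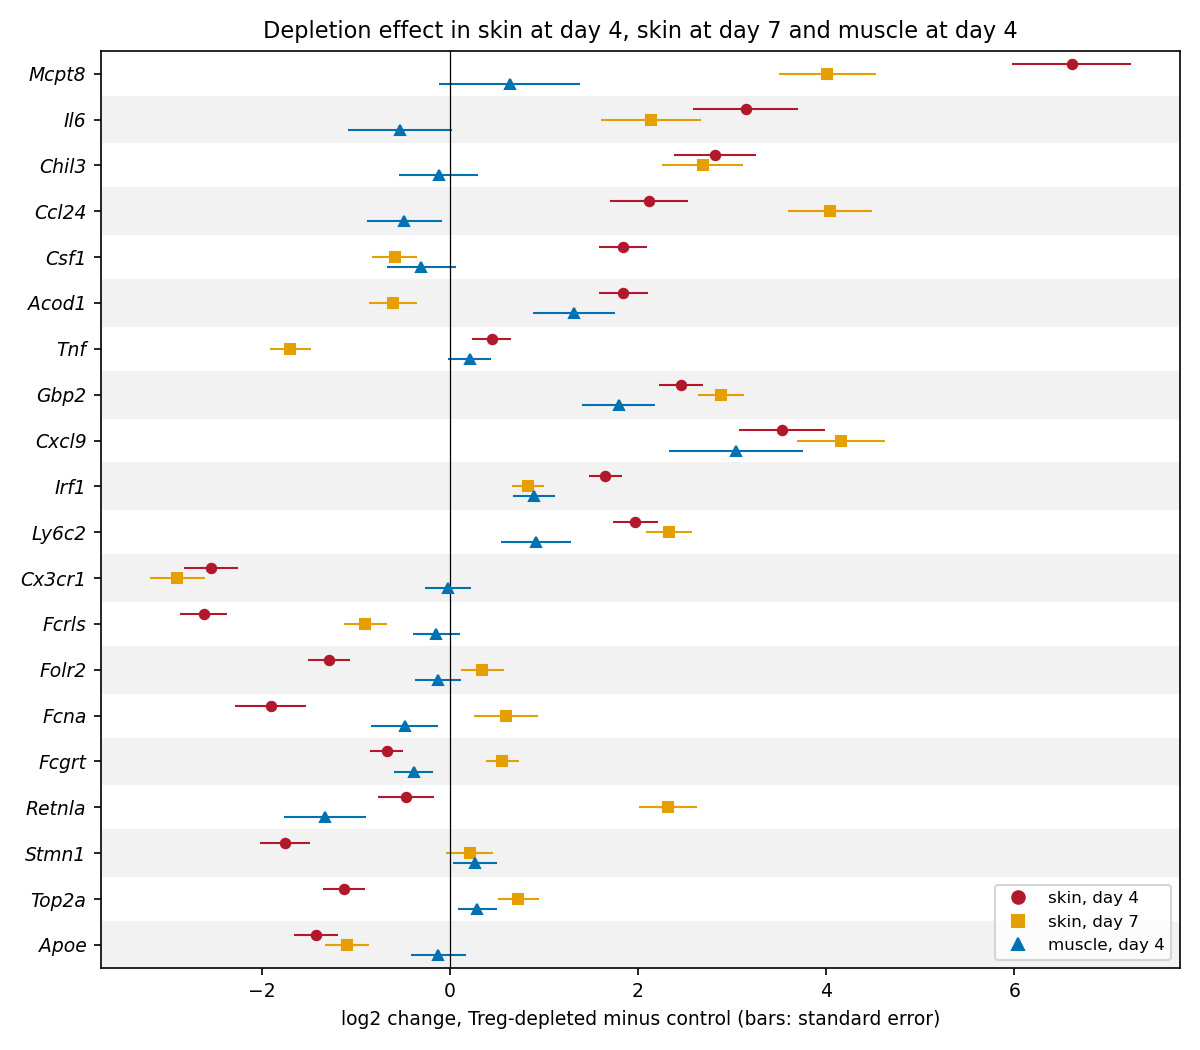
Log2 change (depleted minus control, points) with its standard error (bars) of 20 chosen genes in skin at day 4, skin at day 7 and muscle at day 4, the muscle values from the fit with skin. A reader should see Gbp2 at 2.46 and 2.88 in skin at days 4 and 7, Retnla to the right of 0 at skin day 7 but not at day 4, and Cx3cr1 near 0 in muscle but far to the left in skin on both days.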

How the data were processed

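Monocytes and macrophages of skin wounds were sequenced as bulk RNA, primed at poly(A) tails, with unique molecular identifiers in the index read, per the labels' protocols. The deposited table of bone, muscle and skin holds unscaled estimated counts per gene, made by the authors with STAR, featureCounts and limma on GRCm38 or GRCm39, per the submitters' processing notes. Of the non-zero values of the 16 skin libraries 18.5 to 20.8 percent were not whole, and all were rounded before testing. How identifiers were treated, the annotation and tool versions were not given in the sources used here.

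Tests were run with edgeR (version 4.0.16, R 4.3.3; trimmed mean of M-values normalization, filterByExpr, robust quasi-likelihood fits, Benjamini-Hochberg adjustment, threshold 0.05), with all 16 skin libraries of 4 groups in 1 fit. Skin and muscle shared another fit for their difference. CPM are on the normalized library sizes, and standard errors were taken as the log2 change, without its sign, divided by the root of F. DESeq2 1.42.0 and limma-voom (limma 3.58.1), RLE normalization, no filter, the day 4 libraries alone, a replicate block, an Rn18s-rs5 covariate, the removal of mitochondrial, ribosomal protein and Rn18s-rs5 genes, and each library left out were alternatives. The fit was tested on simulated counts. Within a group, libraries differed by more than sampling noise (chi-square over degrees of freedom 7.67 to 27.5), so each counted as 1 sample.

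The members and gene lists were chosen with earlier results of these data known. The rule for named genes took the 12 largest changes in each direction among called genes with at least 5 CPM in a group and no overlap, up to 4 called members per list, a fixed panel, and the 5 largest differences in each direction with day 7 and with muscle. Genes printed beyond the rule, the promoters shown and the added alternatives were picked after values were seen, and not every gene of the rule is printed. Intervals cover counting error only. Sequences were read from a RefSeq table of GRCm38.p6, and words shared between genes from GENCODE mouse transcripts (release M21). Overlapping and antisense genes were left as counted. Heart and bone libraries were not used here, and some genes are not reported here.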

Additional observations from a re-analysis of the deposited data

Results flagged for a closer look

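Libraries that stood apart were sought in 252 groups of 4 values, as a gap to the nearest library, divided by the group's range, above Dixon's 95% critical value, and 16 were found, where chance gives about 1 in 20 groups. Depleted replicate 1 stood apart for Cenpe (0.915), Hs3st1 (0.8765), Ly6c2 (0.908), Plac8 (0.849), Stmn1 (0.921) and Thbs1 (0.872), with the gap given as a share of the range. It was the highest depleted library for Ly6c2, Plac8, Stmn1 and Cenpe and the lowest for Hs3st1 and Thbs1. Depleted replicate 2 stood apart for Csf1r (0.877), Mgl2 (0.846) and Mmp13 (0.866), and depleted replicate 3 for Cd68 (0.88). Among control libraries, replicate 4 stood apart for C1qc (0.8291), Csf1 (0.976), Fcrls (0.947) and H2-DMa (0.836), replicate 3 for Gbp5 (0.944) and replicate 2 for Stab1 (0.971).

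The depletion effect differed between skin wounds of day 4 and day 7, by the test of the difference itself, for 16 of the 126 genes checked. The difference of the log2 changes (day 4 minus day 7) was positive for Acod1 2.45, Csf1 2.43, Tnf 2.14 and Clec4e 1.71. It was negative for AW112010 -0.80, Fcgrt -1.23, Mgl2 -1.59, Folr2 -1.63, Fcrls -1.71, Top2a -1.86, Stmn1 -1.97, Cenpe -1.97, Fcna -2.50, Retnla -2.78, Cd209f -3.40 and Rnase2a -5.84.

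Between skin and muscle at day 4 the difference of the effects likewise passed for 15 of the same 126 genes. The log2 difference (skin minus muscle) was positive for Mcpt8 5.98, Il6 3.68, Hspa1b 3.04, Chil3 2.94, Ccl24 2.61 and Csf1 2.15. It was negative for Ms4a7 -1.32, Top2a -1.41, Ccnb1 -1.52, Syngr1 -1.73, Gpr34 -1.83, Ccnd1 -1.96, Stmn1 -2.02, Fcrls -2.46 and Cx3cr1 -2.51. Ccnd1, Gpr34, Ms4a7, Syngr1 and the cell cycle genes Ccnb1, Stmn1 and Top2a, which fell in skin, are among the negative ones.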

How the results depend on the processing

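The 450 calls at skin day 4 (267 higher, 183 lower) became 719 (427 and 292) with no filter on low counts and 276 lower calls by DESeq2. They numbered 265 to 451 (156 to 278 higher, 95 to 173 lower) when each of the 8 libraries was left out, lowest without depleted replicate 4, and 240 (168 higher, 72 lower) without depleted replicates 3 and 4, an alternative chosen after seeing the data, of which 189 were also among the 450. With the basophil covariate, also chosen after seeing the data, 0, 0 and 0 passed, and 31 called log2 changes turned their sign, none of them past the threshold there: Gzmb -3.76, Skap1 -3.66, Grm6 -2.53, Fcer1a -2.49, Cd200r3 -2.46, Hgf -2.36, Ms4a2 -2.01, Ccl3 -1.64, Il4 -1.60, Il6 -1.47, Ccl24 -1.06, Il1rl1 -0.98, Hbegf -0.82, Asb2 -0.77, Hdc -0.77, Osm -0.73, Cxcr2 -0.69, Acod1 -0.68, Csf2rb -0.66, Egr3 -0.61, Jak2 -0.59, Tnfrsf18 -0.55, Nkg7 -0.42, Csf1 -0.35, Cish -0.24, Gata2 -0.23, Lama5 -0.16, Pdcd1lg2 -0.13, Chil4 -0.061, Tgfbr1 0.17 and Fcna 0.65. The covariate's sum does not overlap between the groups at day 4, so that this fit leaves little of the contrast. Fcer1a, Cd200r3, Ms4a2, Il4, Hdc and Gata2 are themselves part of that sum. Their change of sign in this fit therefore tells nothing about them. The count of differences between days 4 and 7, 107 (74 and 33), became 319 (210 and 109) with no filter and 264 (183 and 81) by DESeq2, and ranged from 68 to 162 (41 to 110 and 22 to 52) with each library left out. The count of differences between skin and muscle, 33 (12 and 21), became 153 (78 and 75) with no filter, 117 (57 and 60) by DESeq2 and 6 more positive by limma-voom, and ranged from 8 to 88 (4 to 38 and 4 to 50). The replicate numbers do not pair the libraries (correlations of deviations -0.145, 0.0686, 0.0811 and 0.0089), and with them as a block 51 genes were more negative at day 4 than at day 7, and 54 (21 and 33) differed between skin and muscle. Of 141 called genes followed, 91 held in all 8 fits that left out 1 library and 50 did not. Without depleted replicates 3 and 4, 59 of the genes followed lost their call. By limma-voom 31 of 179 genes followed lost it, with the replicate block 11 and with the day 4 libraries alone 9. No filter and RLE normalization lost 3 each and the Rn18s-rs5 covariate 2. Calls were gained for 5 genes with no filter, 4 by DESeq2, 3 with the day 4 libraries alone, 1 with the replicate block and 1 with the Rn18s-rs5 covariate. Of 38 list medians, 28 moved by more than the spread between libraries with the basophil covariate, 8 without depleted replicates 3 and 4, and 0 to 6 under each other alternative. The cause of these shifts was not tested. Depth limits genes with a few counts in a group, such as Il13, Csf2 and Foxp3.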
